A study of Caenorhabditis elegans with 10 samples.

Results

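CREB proteins are bZIP transcription factors that bind cAMP response elements and are switched on by kinases acting downstream of calcium and cAMP. In *C. elegans*, *crh-1* encodes the CREB homolog, known for roles in long-term memory, temperature-dependent behaviour and lifespan, and *crh-2* encodes a related CREB family protein. Both genes also give circular RNAs (circRNAs), closed loops formed when the splice donor at the end of an exon is joined back to the acceptor of the same or an upstream exon. NOVA proteins are KH-domain RNA-binding proteins that regulate alternative splicing, and *nova-1* encodes the only NOVA homolog of *C. elegans*.

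The circRNAs of *crh-1* and *crh-2* are 3 of the 141 back-splice junctions counted in this series, 2 from *crh-1* and 1 from *crh-2*. They were taken by host gene, through the loci listed by the study, without use of their counts. Total RNA came from whole hermaphrodites on day 3 of adulthood, 5 biological replicates of the wild-type strain N2 and 5 of the *nova-1*(tm6146) deletion strain VDL1105, which was outcrossed. Animals of both genotypes were grown on *E. coli* OP50 and moved to plates with FUdR, which prevents progeny, at the L4 stage. The mutant was represented by 1 strain with 1 deletion allele, carried in all tissues, and RNA of whole animals cannot tell fewer cells that make a circRNA from less circRNA per cell. No junction of the table was linked to *nova-1* itself, so the genotype labels were not checked against the deleted gene.

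The 2 *crh-1* circRNAs, cel_circ_0000438 and cel_circ_0000439 (together circ-*crh-1*), are each a single coding exon. In the Ensembl annotation of WBcel235, exon 4 of *crh-1* (WBGene00000793, plus strand of chromosome III) spans 11688126 to 11688336 in transcript Y41C4A.4b.1 and 11688132 to 11688336 in the other 5 transcripts that contain it. The longer form has 211 nt and the shorter form has 205 nt. The added 6 nt keep the reading frame, as exon 5 begins in the same frame in both transcripts. In the count table these junctions run from 11688007 and 11688013 to 11688217, exactly 119 nt below the exon ends. Such an offset was common to the table. On chromosome III it lay between 1 and 120 nt for the 29 loci that could be matched to annotated exon ends, and coordinates were not converted.

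The letters that separate the circles can be read from the oligonucleotides that the study designed across the back-splice junctions. They are shown because the isoform result below rests on these 6 nt, which are in capitals in the primer for cel_circ_0000438. The stretch before the capitals, cacagcccaaag, is present in both primers. The letters allow 4 placements of the segment, and the one shown is the single placement that ends in AG, the dinucleotide that closes an intron before a splice acceptor.
cel_circ_0000438 forward: cacagcccaaagTTTCAGtc
cel_circ_0000439 forward: gcttcacagcccaaagtcag
shared reverse: cattgctggatggcagaatc
linear *crh-1* forward: gccgtccagtgtagatgctt
The 3 *crh-1* assays use the same reverse primer. In both circRNA primers the shared stretch is followed by the first letters of the exon, which start with the segment in the longer form and without it in the shorter form.

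The *crh-2* circRNA, cel_circ_0001065, was counted at 5183670 to 5184582 on chromosome II, and both ends lie 18 nt below ends of annotated exons of *crh-2* (WBGene00016162, minus strand). The matching exons are 5184459 to 5184600, 5183957 to 5184104 and 5183688 to 5183802, which are exons 3 to 5 of transcript C27D6.4b.1 and exons 2 to 4 of C27D6.4c.1. All 3 are coding, with 142, 148 and 115 nt, and joined without introns they give a circle of 405 nt. Both transcripts were matched by the outer ends of the circle, so their shared outer acceptor was fixed by the match. Whether any of the 4 annotated *crh-2* transcripts uses another acceptor at these exons was not examined. Both genes also occur among the alternative 3′ splice site events that the study listed for linear mRNA, and linear splicing was not analysed here.

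**Figure D1:**
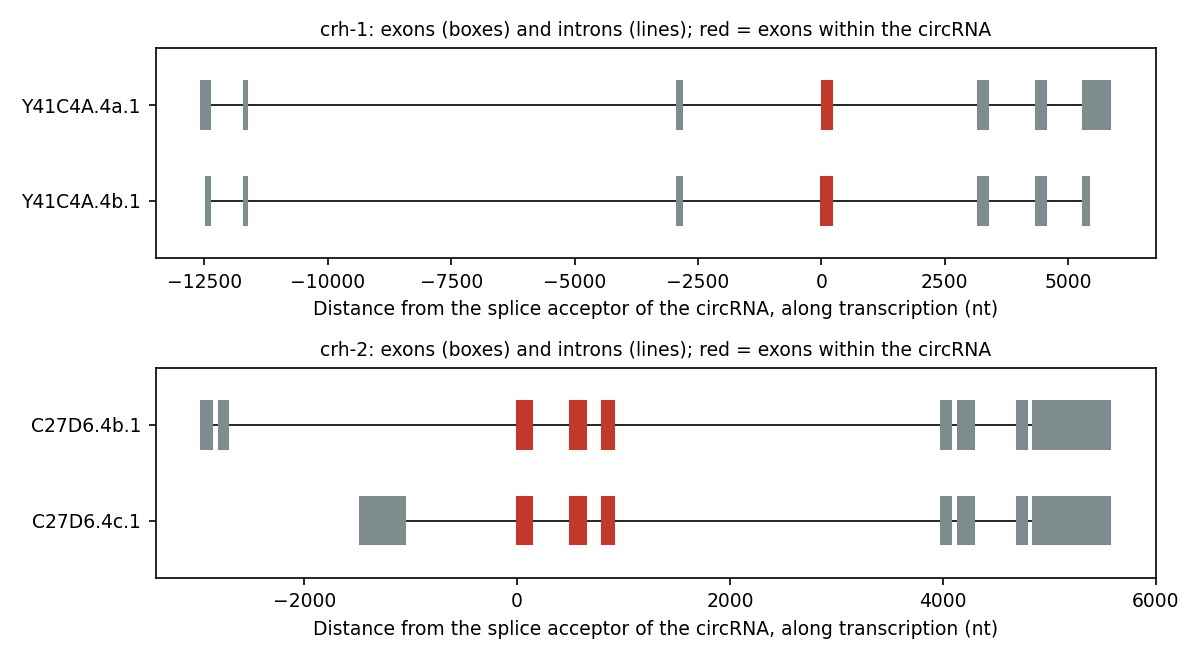
Exons (boxes) and introns (lines) of 2 transcripts of *crh-1* and 2 of *crh-2*, plotted by distance in nt from the acceptor of the circRNA in the direction of transcription, with circularized exons in red. In both genes the circularized exons stand between long introns, of 2822 and 2956 nt for the longer form of *crh-1* exon 4.

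Both host genes place the circle between long introns. The introns before and after the longer form of *crh-1* exon 4 have 2822 and 2956 nt. For *crh-2* the intron after the circle has 3068 nt, and the one before it has 2711 nt in C27D6.4b.1 and 1051 nt in C27D6.4c.1. The median of the 109516 distinct introns of protein-coding genes in the annotation is 68 nt, and the 2822 nt intron is longer than 98.3% of them. Long flanks were not particular to these genes. Among the 100 loci matched to exon ends, the median intron after the circle was 1467.5 nt, and 20 of them had a longer one than cel_circ_0000438. These 20 include cel_circ_0000439 of the same exon, and *afd-1* loci that nearly coincide were counted separately. The genomic spans of the loci, which include any introns inside a circle, differed more. With 205 and 211 nt and no inner intron, the *crh-1* junctions were among the shortest of the 141. They had rank 4 and 6 from the shortest, against a median span of 641 nt. The *crh-2* locus, at rank 83, spans 913 nt, of which 405 nt remain after splicing. Spliced lengths were not ranked.

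Between 7955 and 15014 counts per wild-type replicate and between 8514 and 9437 per *nova-1* replicate fell on the 141 loci. Counts were scaled with TMM factors and tested over all loci with the edgeR quasi-likelihood *F*-test, and log2FC is *nova-1* over wild-type. All junctions were counted on scaffolds of 200 nt, and no correction for length was applied between junctions. Some circles were shorter than a scaffold and some loci nearly coincided, so ranks between junctions are given as a description. Single ratios and shares were compared with exact permutation tests, all of them two-sided, and intervals on shares cover counting error only. Wild-type replicate 1 had the most counts in the table and was the lowest library for 2 of the 3 members.

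The level of cel_circ_0000438, the longer exon 4 circle, was lower on average in *nova-1* mutants, but the genotypes overlapped. It had 29, 49, 30, 34 and 42 counts in wild-type replicates 1 to 5 and 54, 21, 22, 32 and 15 counts in *nova-1* replicates 1 to 5. After scaling, *nova-1* replicates 2, 3 and 5, with 21.0, 19.6 and 16.4 normalized counts, were below every wild-type replicate, whereas *nova-1* replicate 1, with 44.2, was above all wild-type replicates but replicate 2. The difference, a log2FC of -0.51 (standard error 0.30, 95% interval -1.13 to 0.10), did not pass the test (unadjusted *P* = 0.0996, adjusted *P* = 0.21, edgeR). Leaving out 1 replicate at a time moved this value in both directions, from -0.82 without *nova-1* replicate 1 (adjusted *P* = 0.0617, edgeR) to -0.38 without *nova-1* replicate 5 (adjusted *P* = 0.413, edgeR). Scaling to column totals gave -0.30 (adjusted *P* = 0.609, edgeR).

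The shorter circle, cel_circ_0000439, was the more abundant isoform in every library and ranked 10th of the 141 loci by mean normalized count, against rank 42 for the longer circle. It had 56, 139, 103, 113 and 155 counts in wild-type and 202, 120, 213, 127 and 122 counts in *nova-1* mutants. Wild-type replicate 1 was the lowest of the 10 libraries, with 50.3 normalized counts where the other 4 wild-type replicates had 120.0 to 161, and *nova-1* replicates 2, 4 and 5 lay within the wild-type range while replicates 1 and 3, with 165 and 190.1, lay above it. The log2FC was 0.30 (standard error 0.26, 95% interval -0.24 to 0.83, adjusted *P* = 0.418, edgeR). Leaving out 1 replicate at a time gave 0.10 to 0.42, with the lowest value without wild-type replicate 1.

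With both isoforms summed, the exon 4 circle was not distinguishable between genotypes. The sums lay between 85 and 197 counts in the wild-type libraries and between 137 and 256 counts in the mutant libraries. Normalized, the wild-type sum was 162 ± 49.0 and the *nova-1* sum was 172 ± 34.0 (mean ± SD, n = 5 each), a log2FC of 0.09 (standard error 0.25, adjusted *P* = 0.819, edgeR). The 95% interval of the log2FC, -0.42 to 0.61, spans changes in either direction. Wild-type replicate 1 was again the lowest, and without it the log2FC turned to -0.06 (adjusted *P* = 0.883, edgeR), the lowest of the values from -0.06 to 0.23 obtained with 1 replicate left out. Scaled to sequenced reads in place of TMM, it also had the lowest circ-*crh-1* level of the 10 libraries.

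**Figure D2:**
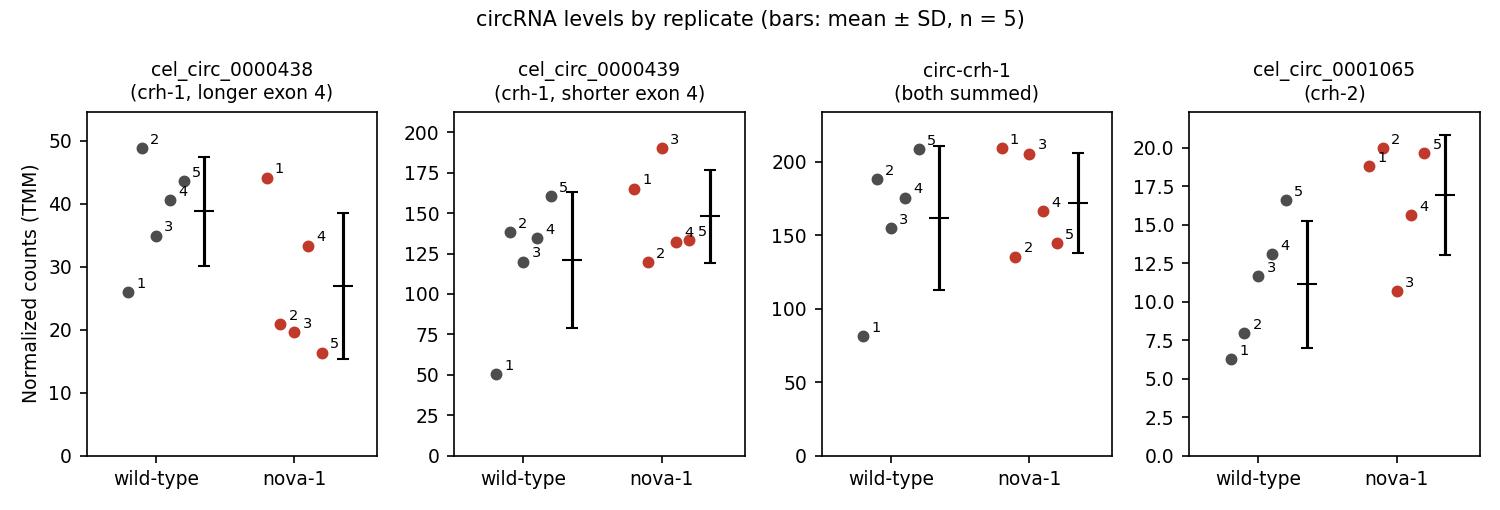
TMM-normalized counts of each *crh-1* isoform, of their sum and of the *crh-2* circRNA in 5 wild-type (grey) and 5 *nova-1* (red) replicates, numbered as in the labels, with mean ± SD as black bars. The genotypes overlap in all 4 panels, and wild-type replicate 1 is the lowest library for cel_circ_0000439, for the sum and for *crh-2*.

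The *crh-2* circRNA was scarcer than either *crh-1* isoform and ranked 106th of the 141 loci. It had 7, 8, 10, 11 and 16 counts in wild-type and 23, 20, 12, 15 and 18 counts in *nova-1* mutants. *nova-1* replicates 1, 2 and 5 were above every wild-type replicate after scaling, and replicate 3, with 10.7 normalized counts, was below the wild-type mean of 11.1. The mean in *nova-1* mutants was 17.0 ± 3.89 (SD, n = 5) against 11.1 ± 4.11 (SD, n = 5), a log2FC of 0.61 (standard error 0.39, 95% interval -0.18 to 1.41) that did not pass the test (unadjusted *P* = 0.125, adjusted *P* = 0.251, edgeR). The libraries held 7 to 23 counts of this junction.

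None of the 3 circRNAs passed an adjusted *P* of 0.05 in edgeR, and none passed the fold threshold of the study's methods, an absolute log2FC above 0.5, with an unadjusted *P* under 0.05. With 1 replicate left out, cel_circ_0000438 passed the second criterion without *nova-1* replicate 1 (log2FC -0.82, unadjusted *P* = 0.0157, edgeR) or wild-type replicate 1 (log2FC -0.62, unadjusted *P* = 0.0232, edgeR) and in no other case. Over all 141 loci, 28.4% passed the first criterion and 40.4% passed the second. The normalized counts of the genotypes did not overlap at 24.8% of all loci and overlapped at all 3 of these. Setting the *crh-2* circRNA against circ-*crh-1* within each library needs no scaling. Each *crh-2* count stood beside 12.1 to 23.5 circ-*crh-1* counts in the wild-type libraries, and beside 7.05 to 19.6 in those of the mutant. The log2 ratio of *crh-2* to circ-*crh-1*, with 1 added to each count, was -3.72 ± 0.38 for wild-type and -3.31 ± 0.57 for *nova-1* (mean ± SD, n = 5 each). The difference of these means did not pass (exact permutation, p = 0.183). Single libraries moved this difference of 0.41 both ways. It was 0.24 without wild-type replicate 2 (exact permutation, p = 0.365), 0.27 without *nova-1* replicate 2 (exact permutation, p = 0.365) and 0.63 without *nova-1* replicate 3 (exact permutation, p = 0.0159).

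The balance of the *crh-1* isoforms differed between genotypes, with a smaller share of the longer circle in *nova-1* mutants. Within each library, cel_circ_0000438 took 34.1%, 26.1%, 22.6%, 23.1% and 21.3% of the circ-*crh-1* counts in wild-type replicates 1 to 5 and 21.1%, 14.9%, 9.36%, 20.1% and 10.9% in *nova-1* replicates 1 to 5. Every *nova-1* replicate lay below every wild-type replicate, and the closest were 21.1% and 21.3%. For each count of the longer circle the wild-type libraries had 1.93 to 3.69 counts of the shorter one, and the mutant libraries had 3.74 to 9.68. The wild-type replicates with the lowest shares and *nova-1* replicates 1 and 4 had Wilson intervals that overlapped widely, for example 16.2% to 27.6% in wild-type replicate 5 and 16.5% to 26.5% in *nova-1* replicate 1.

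The mean share was 25.4% ± 5.16 in wild-type against 15.3% ± 5.27 for *nova-1* (SD, n = 5 each), a difference of -10.2 percentage points (exact permutation, p = 0.00794). With 5 replicates on each side no lower p can be reached. The difference of medians was -8.24 points (exact permutation test, p = 0.0476). With counts pooled over replicates, the longer circle took 184 of 750 counts in wild-type (24.5%) and 144 of 928 counts in *nova-1* mutants (15.5%). Counting error alone would give an SD of 2.75 points among the *nova-1* replicates and 3.68 points among the wild-type replicates, below the 5.27 and 5.16 points observed. In *nova-1* replicates 3 and 5 the share was at or below 10.9%, and in replicates 1 and 4 it was above 20%. The high share of wild-type replicate 1 came with a low count of the shorter circle, 56, and not with a high count of the longer one, 29. Without this library the difference was -7.98 points. As the genotypes do not overlap, the permutation p with any 1 replicate left out is fixed at its smallest value and adds no support.

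**Figure D3:**
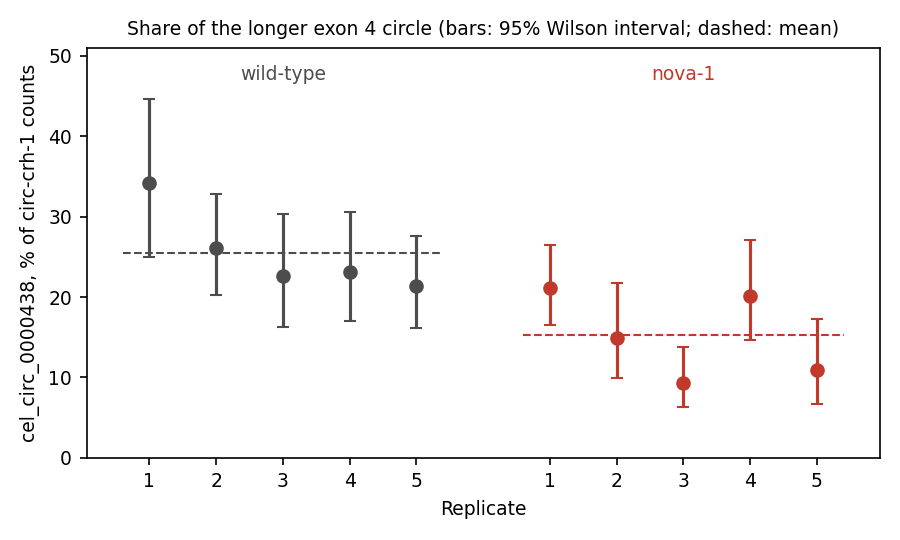
Percentage of circ-*crh-1* counts that fell on cel_circ_0000438 in each replicate, with 95% Wilson intervals as bars and the mean of each genotype as a dashed line. Wild-type replicates run from 21.3% to 34.1% and *nova-1* replicates from 9.36% to 21.1%.

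The same change can be tested as junction usage, in which the log2FC of each junction is compared with that of all junctions of its host gene. This model, diffSpliceDGE in edgeR, covered 35 junctions of the 14 host genes with more than 1 listed junction. In *F54A3.2*, *lin-1*, *Y71G12B.2* and *Y92H12A.4* the listed junctions nearly coincide, as do some of *afd-1*, and they may not be distinct circles. They were counted separately in the adjustment and in the percentages below, and the model was not run without them. The log2FC of cel_circ_0000438 stood at -0.65 relative to all *crh-1* junctions (unadjusted *P* = 0.045, adjusted *P* = 0.237, edgeR), and that of cel_circ_0000439 stood at 0.16 (unadjusted *P* = 0.557, edgeR). The difference of -0.81 between both junctions was not itself tested in this model. An adjusted *P* under 0.05 was reached by 5.71% of the 35 junctions and an unadjusted *P* under 0.05 by 20% of them. The share of cel_circ_0000438 thus passed the exact test, and its usage did not pass the model over all junctions after adjustment.

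The isoform shift was set beside all other pairs of junctions in the table that share exactly 1 end. There were 11 such pairs from 6 host genes, and the same exact permutation test was run on each. Pairs of *afd-1* loci that nearly coincide were counted separately. The *crh-1* pair was the only one whose differing ends lay within 10 nt. In the other pairs the ends lay 962 to 11359 nt apart. Adjusted over the 11 pairs, 2 pairs (18.2%) passed, *crh-1* and *fars-2* (adjusted p = 0.0437 for each, exact permutation tests), and these were also the 2 pairs in which the genotypes did not overlap. Both had the smallest p that can be reached with all replicates, 0.00794 (exact permutation tests). A single pair at this p would not have passed, so the adjusted value of *crh-1* depends on *fars-2*. In *fars-2*, which encodes a phenylalanyl-tRNA synthetase, the longer junction rose from 22.4% to 46.6% of the pair, opposite in direction to *crh-1* and 24.2 points in size. With 1 replicate left out, the smallest p that can be reached is 0.0159. The pair of *zip-12*, another bZIP gene, had 76.4% of its counts on the longer junction in wild-type and 67.5% in *nova-1* mutants, which did not pass (exact permutation test, p = 0.0714).

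**Figure D4:**
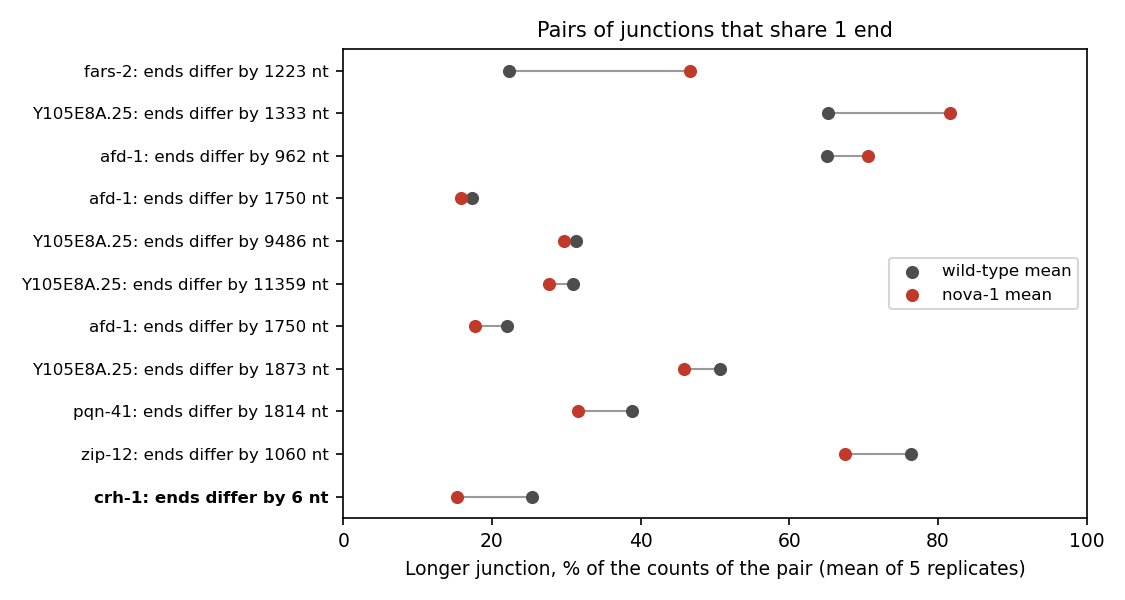
Mean percentage of counts on the longer junction for the 11 pairs of junctions that share 1 end, in wild-type (grey) and *nova-1* mutants (red), with host gene and distance between the differing ends. The *crh-1* pair falls from 25.4% to 15.3% and the *fars-2* pair rises from 22.4% to 46.6%.

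Reads that cross either *crh-1* junction with few letters past the back-splice fit both scaffolds, which differ by 6 nt. With circles of 205 and 211 nt, scaffolds of 200 nt also cover nearly all of the circle. How many letters beyond the junction a read had to match is not given in the sources used here. The part of misassigned reads in the shares was not tested.

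The *crh* circRNAs were then viewed within the bZIP factors, the protein family to which CREB belongs. Of 31 bZIP genes in the list, *crh-1* and *crh-2* among them, 6 had at least 1 junction in the table. These genes had 8 junctions in all, of which 3 were the *crh* junctions themselves. At an adjusted *P* under 0.05 in edgeR, the mutant had more of 2 of these 8 and less of 0, where 15.6% of all loci rose and 12.8% fell. The median log2FC of the 8, *crh* junctions included, was 0.25, against -0.10 over all 141 loci. The junctions that passed were those of *zip-2*, which encodes a bZIP factor known from the response to pathogens, and the shorter junction of *zip-12*.

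The *zip-2* circRNA cel_circ_0000308 had a log2FC of 1.24 (standard error 0.36, adjusted *P* = 0.0111, edgeR). Its 95% interval, 0.51 to 1.96, overlaps that of *crh-2*, and the difference between these loci was not tested. The *zip-12* circRNA cel_circ_new_0002924 rose from 21.6 ± 8.18 to 37.6 ± 8.25 normalized counts (SD, n = 5; log2FC 0.79, adjusted *P* = 0.0478, edgeR), a call that was lost under 13 of 18 alternative settings, DESeq2 among them (adjusted *P* = 0.0662). The other *zip-12* junction had a log2FC of 0.19. The junction of *zip-3*, which encodes a bZIP partner of the mitochondrial stress factor ATFS-1, had a log2FC of -0.30, and that of *zip-9* had -0.38. None of these 3 passed. A second list held 32 genes of the signalling around CREB, such as *crtc-1*, *cmk-1*, *unc-43* and *kin-1*, and 0 of them had a junction in the table. Their circRNAs could therefore not be compared in these counts.

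**Figure D5:**
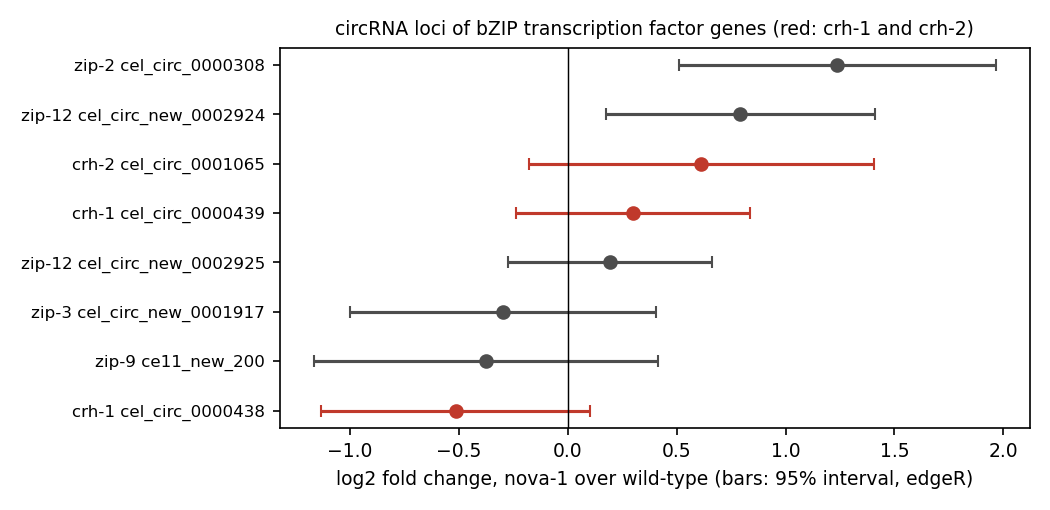
log2FC of the 8 junctions of bZIP genes with 95% intervals from edgeR, *crh-1* and *crh-2* in red and other genes in grey. The intervals of the 3 *crh* junctions cross 0, and those of *zip-2* and the shorter *zip-12* junction do not.

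Relations between the members across the 10 libraries did not pass their tests. The log2 normalized counts of cel_circ_0000438 and cel_circ_0000439 had a Pearson's *r* of 0.16 (permutation test, p = 0.673) and a Spearman's rho of 0.33 (permutation test, p = 0.347). Without the 2 libraries farthest from the median of the first member of each pair, *r* was 0.60 here, 0.16 for cel_circ_0000439 and *crh-2*, and -0.05 for cel_circ_0000438 and *crh-2*. Between cel_circ_0000439 and *crh-2*, *r* was 0.54 (permutation test, p = 0.164) and rho was 0.02 (permutation test, p = 0.974). Between cel_circ_0000438 and *crh-2*, *r* was -0.17 (permutation test, p = 0.649) and rho was -0.20 (permutation test, p = 0.583). None of these 3 relations passed a Benjamini–Hochberg adjustment, with adjusted p between 0.492 and 0.974 in the permutation tests. Whether these relations differ between genotypes was not tested. The 5 libraries of a genotype are too few for a coefficient. Wild-type replicate 1 had the lowest normalized counts of the 5 wild-type libraries for all 3 members. It had 26.0 for cel_circ_0000438, 50.3 for cel_circ_0000439 and 6.28 for *crh-2*, and so weighs on any relation among them in wild-type.

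Each member had other loci whose profile over the 10 libraries was more like its own. These were ranked by *r* among the other 140 loci and are given as a description. For cel_circ_0000438 the 3 closest were *Y51A2D.7* (*r* = 0.78, rho = 0.67), *swah-1* (*r* = 0.73, rho = 0.83) and *png-1* (*r* = 0.71, rho = 0.49). For cel_circ_0000439 they were *denn-4* cel_circ_0000947 (*r* = 0.92, rho = 0.83), *afd-1* cel_circ_0000038 (*r* = 0.84, rho = 0.14) and *zip-2* (*r* = 0.83, rho = 0.19). For *crh-2* they were *pqn-41* cel_circ_0000335 (*r* = 0.85, rho = 0.88), *C04E7.3* (*r* = 0.82, rho = 0.72) and *zip-2* (*r* = 0.80, rho = 0.75). The gap between *r* and rho for *afd-1* and *zip-2* beside cel_circ_0000439 is large, and their order over the libraries was little alike.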

How the data were processed

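The authors deposited raw counts of reads per back-splice junction for 10 libraries. They aligned reads to WBcel235/ce11 with HISAT2, realigned unmapped reads with BWA, predicted loci with CIRI2, removed loci with few junction reads, mapped reads to 200-nt junction scaffolds with Bowtie2, removed duplicates with Picard and counted with featureCounts. Loci were linked to host genes by the study's list, 112 by identical and 26 by shifted coordinates. Exons came from the Ensembl annotation of WBcel235.

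All 141 loci were tested with edgeR v4.0.16 in R v4.3.3 (TMM, glmQLFit, glmQLFTest, Benjamini–Hochberg), and junction usage with diffSpliceDGE. Standard errors are the absolute log2FC divided by the square root of *F*. Normalized counts refer to the mean effective library of 9421 counts. Shares and ratios were compared with exact permutation tests (scipy v1.17.1), and intervals on shares are Wilson intervals at 95%. The edgeR script was tested on simulated data. Alternatives were RLE factors, column totals, sequenced reads as library size, DESeq2 v1.42.0, a filter on low counts, robust dispersion, the replicate block, leaving out the 3 loci with most counts and leaving out each replicate.

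The named loci are all loci of *crh-1* and *crh-2*, the 3 most similar loci to each, all loci of the bZIP and CREB pathway lists and the pairs past the adjusted threshold. The members and lists were chosen with earlier results of these data known. The study's own splicing values and RT-qPCR data were not used.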

Additional observations from a re-analysis of the deposited data

Results flagged for a closer look

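In 12 groups of 5 replicates, made of the levels, shares and ratios of the *crh* circRNAs in each genotype, 1 had a replicate set apart from the other 4. The log2 ratio of *crh-2* to circ-*crh-1* was -4.39 in wild-type replicate 2, where the other wild-type replicates had -3.62 to -3.43. This library had 8 counts of the *crh-2* circRNA and 188 counts of circ-*crh-1*. Without it the difference between genotypes was 0.24 on the log2 scale (exact permutation test, p = 0.365). Chance sets a replicate apart in about 1 of 20 such groups.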

How the results depend on the processing

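The levels of cel_circ_0000438, cel_circ_0000439 and the *crh-2* circRNA kept their direction and stayed above an adjusted *P* of 0.05 in edgeR and DESeq2 under all 18 alternatives each, with adjusted *P* of 0.0617 to 0.609, 0.265 to 0.763 and 0.156 to 0.412. Their log2FC ran from -0.82 to -0.38, 0.10 to 0.42 and 0.46 to 0.81 with 1 replicate left out. Column totals without TMM moved the median log2FC of all loci from -0.10 to 0.14 and gave -0.30, 0.47 and 0.80 for the members. They gave 35 higher and 16 lower loci by the fold rule, against 30 and 27. Summed circ-*crh-1* ran from -0.057 to 0.23 with 1 replicate left out, was 0.31 on column totals, and reversed only without wild-type replicate 1 (-0.057). With 1 replicate left out, the share of cel_circ_0000438 differed by -11.6 to -7.98 points, and its p is then fixed at the smallest value by the separation of the genotypes. The difference in the log2 ratio of *crh-2* to circ-*crh-1* ran from 0.24 to 0.63 and passed only without *nova-1* replicate 3. The difference in log2FC between the *crh-1* junctions ran from -1.03 to -0.61, and the usage of cel_circ_0000438 against its gene passed the adjusted threshold under none of 13 alternatives. Robust estimation left it at -0.81 because diffSpliceDGE does not use it. The number of called loci stayed within 31 to 48.

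Replicate numbers occur in both genotypes, but same-numbered libraries did not deviate together (correlations across loci of -0.16 to 0.09), so they were not treated as pairs. With the replicate block, log2FC was -0.57 for cel_circ_0000438, 0.36 for cel_circ_0000439, 0.64 for *crh-2* and 0.13 for summed circ-*crh-1*, none past the adjusted threshold in edgeR. The difference between the *crh-1* junctions was -0.93 (adjusted *P* = 0.25 for the usage of cel_circ_0000438), and 31 loci were called.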
